A study of Arabidopsis thaliana with 6 samples.

Results

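Extensins and arabinogalactan proteins are the hydroxyproline-rich glycoproteins of the plant cell wall, and their genes were followed in seedlings of *Arabidopsis thaliana* treated with the bacterium *Priestia megaterium* YC4-R4. The genes were taken from the words of the short description that the deposited count table gives for each gene. A gene was included where that description contained "extensin" or "arabinogalactan" and did not contain "Pollen Ole e", which gave 29 of the 19616 genes in the table. The description was empty for 13357 genes and removed for 826, so these words could not find every gene of the families. The column headed Gene Type, which holds the short gene names, contained the same words for a further 37 genes (17 more, which name both pollen Ole e and extensin, were left out). These 37 are described beside the 29 as related genes, and each count states which of the sets it covers.

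RNA-Seq libraries were made from whole seedlings of the wild-type ecotype Col-0, ground as a mixture of all organs, at 13 days after germination and 7 days after treatment. Control seedlings (mock, n = 3) received a 0.45% NaCl solution without bacteria, and treated seedlings (n = 3) received *P. megaterium* YC4-R4 in the same 0.45% NaCl carrier. Seeds were germinated on plates and the seedlings moved to soil before the inoculum was added, so both groups share the transfer and the salt solution. The methods call the replicates biological, and the labels do not say whether plants were pooled.

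Extensins are rod-like proteins built from repeats of a serine followed by a run of prolines, which are hydroxylated and glycosylated with arabinose before the proteins are cross-linked through their tyrosines into the wall. Arabinogalactan proteins carry large branched arabinogalactan chains on short motifs in which proline alternates with alanine, serine or threonine, and many are held at the plasma membrane by a lipid anchor. In Arabidopsis, extensins and the chimeric leucine-rich repeat extensins are known from growing root hairs, and the fasciclin-like arabinogalactan proteins join these motifs to a domain of cell adhesion.

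The coding sequences show what separates both kinds of protein, and stretches of 4 genes are given here because the results turn on them: *EXT3* and *LRX1* of the 29, *EXT6* of the related genes, and AT2G15880 of the leucine-rich repeat extensins. The coordinates are those of the TAIR10.1 annotation, and the letters run 5′ to 3′ along the coding strand. Capitals mark each serine codon with the 4 or more proline codons that follow it. *EXT3* lies on the minus strand (chr1:7454773-7454892), *LRX1* on the plus strand (chr1:4071636-4071755), *EXT6* on the plus strand (chr2:10622663-10622782) and AT2G15880 on the minus strand (chr2:6918474-6918593).
EXT3: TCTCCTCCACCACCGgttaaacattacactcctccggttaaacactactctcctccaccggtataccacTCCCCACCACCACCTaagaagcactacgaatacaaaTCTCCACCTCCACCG
LRX1: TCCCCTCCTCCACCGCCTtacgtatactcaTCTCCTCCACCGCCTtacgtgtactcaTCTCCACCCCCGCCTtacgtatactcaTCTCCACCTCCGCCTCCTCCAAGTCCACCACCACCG
EXT6: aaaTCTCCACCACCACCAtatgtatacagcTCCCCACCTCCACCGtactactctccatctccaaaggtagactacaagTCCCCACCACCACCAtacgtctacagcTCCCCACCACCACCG
AT2G15880: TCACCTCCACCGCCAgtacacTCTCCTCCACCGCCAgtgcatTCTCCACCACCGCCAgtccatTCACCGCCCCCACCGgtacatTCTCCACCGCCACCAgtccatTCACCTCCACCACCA
Over the whole coding sequence, such repeats numbered 28 in *EXT3*, 9 in *EXT4*, 24 in *LRX1* and 18 in *LRX2*, and 37 in the related gene *EXT6*. The arabinogalactan protein, peptide and fasciclin-like genes among the 29 held 0. Proline codons made up 36.7% of the codons of *EXT3*, 24.6% of those of *LRX1*, 6.07% of those of *FLA6* and 5.48% of those of *AGP16*.

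The arabinogalactan peptides are much shorter, at 58 to 74 codons. Stretches of *AGP16* (minus strand, chr2:19018826-19019042, 60 coding bases joined across an intron) and *AGP15* (plus strand, chr5:3784372-3784431) are shown because these were the most abundant of the peptides per kb of transcript among the 29. Capitals mark codon pairs for alanine and proline in either order, serine then proline, and threonine then proline.
AGP16: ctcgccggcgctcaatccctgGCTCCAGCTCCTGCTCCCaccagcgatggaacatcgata
AGP15: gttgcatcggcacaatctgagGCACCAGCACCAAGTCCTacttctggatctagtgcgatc
In both, the motif is 1 short run inside the small coding sequence, in contrast to the repeats that fill the extensins.

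Of the 29 genes, 2 rose in treated seedlings, *LRX1* and *FLA6*, and 0 fell. Calls required an adjusted p (Benjamini-Hochberg, edgeR's quasi-likelihood test over all 19615 genes tested) no greater than 0.05 together with a fold change of 1.5 or more. Over all genes, 1.73% were called higher (340) and 1.54% lower (302), or 3.27% in either direction. By adjusted p alone, the 29 held the same 2 higher genes and 1 lower gene (*AGP16*), against 5.1% and 4.52% of all genes. At an unadjusted p below 0.05, 3 of the 29 were higher and 2 lower, against 2368 and 2201 of all 19615 genes. The counts of the 29 were thus no larger a share than over all genes. By other tools, DESeq2 and limma-voom also called 0 of the 29 lower. The log2 fold change (treated minus mock) was above 0 for 19 of the 29, against 49% of all genes. Its median was 0.13 over the 29, with a range from -0.65 to 1.56, and -0.005 over all genes. All 29 passed the filter on low counts, which required enough reads in 3 of the 6 libraries. *FLA6* (5 to 9 reads per mock library) and *AGP27* (1 to 19) passed only through the treated libraries. The filter could thus favour scarce genes that rose. Without it, 2 of the 29 were again called higher and 0 lower. The filter kept 19615 of the 19616 genes, so that fit was nearly the same. It cannot show whether the filter favoured such genes.

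**Figure D1:**
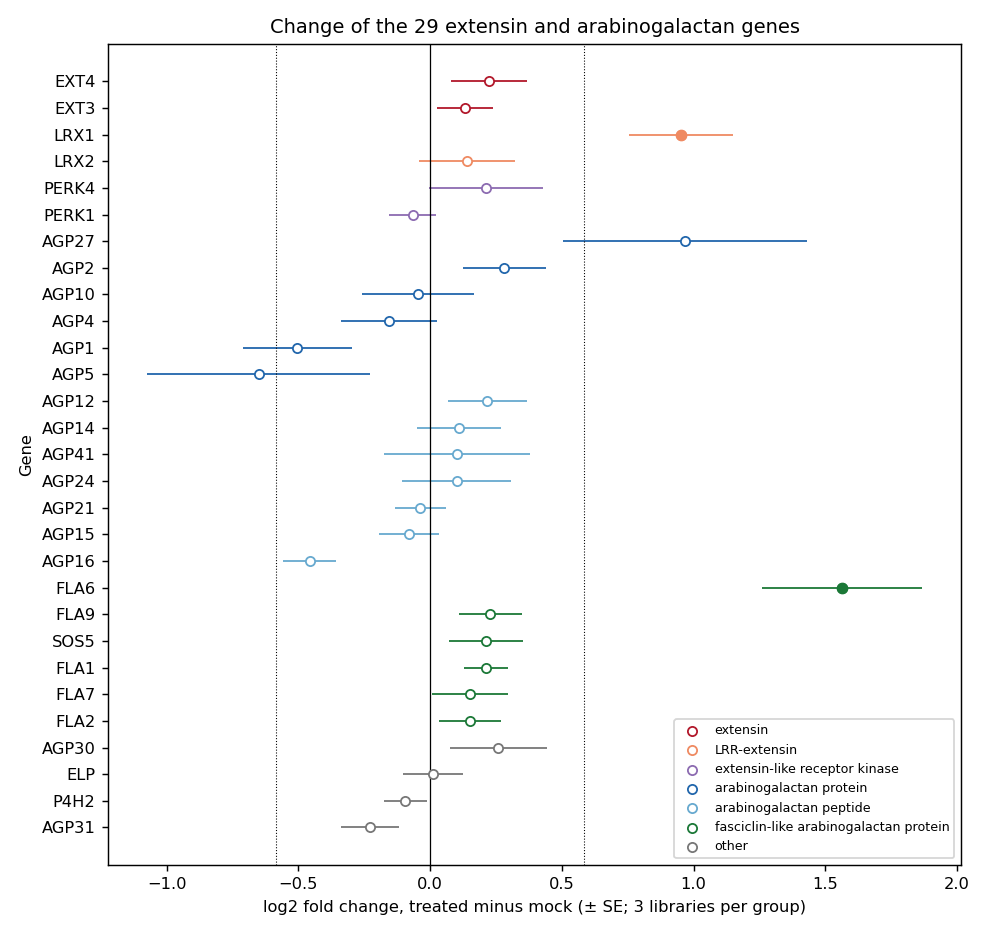
Log2 fold change (treated minus mock, horizontal axis) of each of the 29 genes with its standard error, coloured by class, from 3 libraries per group. Filled points passed both limits, dotted lines mark a fold of 1.5 in each direction, and *FLA6* (1.56) and *LRX1* (0.95) are the filled points. *AGP27* (0.97) reached a like change with the widest error and was not called, and most other genes lie within the dotted lines.

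Total counts were 10804936 to 20040520 in mock and 15292377 to 21904205 in treated libraries, and the trimmed-mean (TMM) factors were 0.971 to 1.02. Levels are given as TMM-normalized CPM, the counts scaled to a fixed library total. Seedling leaves were well represented, with 6 of 6 mesophyll genes in the table at a summed CPM of 18100 to 23700 in mock and 18300 to 25700 in treated libraries, and 0 of 6 flower and pollen genes were in the table. Because whole seedlings were ground, more cells of a type and more RNA per cell cannot be told apart.

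*LRX1* (AT1G12040, plus strand, chr1:4069992-4072681) encodes a leucine-rich repeat extensin of the root hair wall, without which root hairs swell, branch or abort. Its CPM was 2.1, 1.73 and 1.85 in the mock libraries and 4.13, 3.02 and 3.67 in the treated libraries. All treated libraries were above all mock libraries, as was the case for 14.4% of all genes, and the log2 fold change was 0.95 ± 0.196 (SE, adjusted p = 0.0096). The level rested on 21 to 37 reads per mock library and 47 to 91 per treated library. The call was lost without mock library 3 (0.93, adjusted p = 0.0603) and without treated library 1 (0.84, adjusted p = 0.0519). Its close paralogue *LRX2* (AT1G62440), which acts with *LRX1* in shaping root hairs, had 2.37, 3.62 and 3.35 in mock and 3.58, 3.60 and 3.28 in treated libraries. These ranges overlapped, and the log2 fold change of *LRX2* was 0.14 ± 0.182 (adjusted p = 0.706). No stretch of 50 bases of either transcript occurred in a gene elsewhere in the genome.

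*FLA6* (AT2G20520, plus strand, chr2:8840557-8841565) encodes a fasciclin-like arabinogalactan protein. Its CPM was 0.638, 0.411 and 0.450 in the mock libraries and 1.27, 1.48 and 1.64 in the treated libraries. The lowest treated library lay above the highest mock library, and the log2 fold change was 1.56 ± 0.303 (SE, adjusted p = 0.00676). This is a gene of few reads, with 5 to 9 per mock library and 23 to 33 per treated library. Without mock library 3 the log2 fold change was 1.48 and the adjusted p 0.0533.

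**Figure D2:**
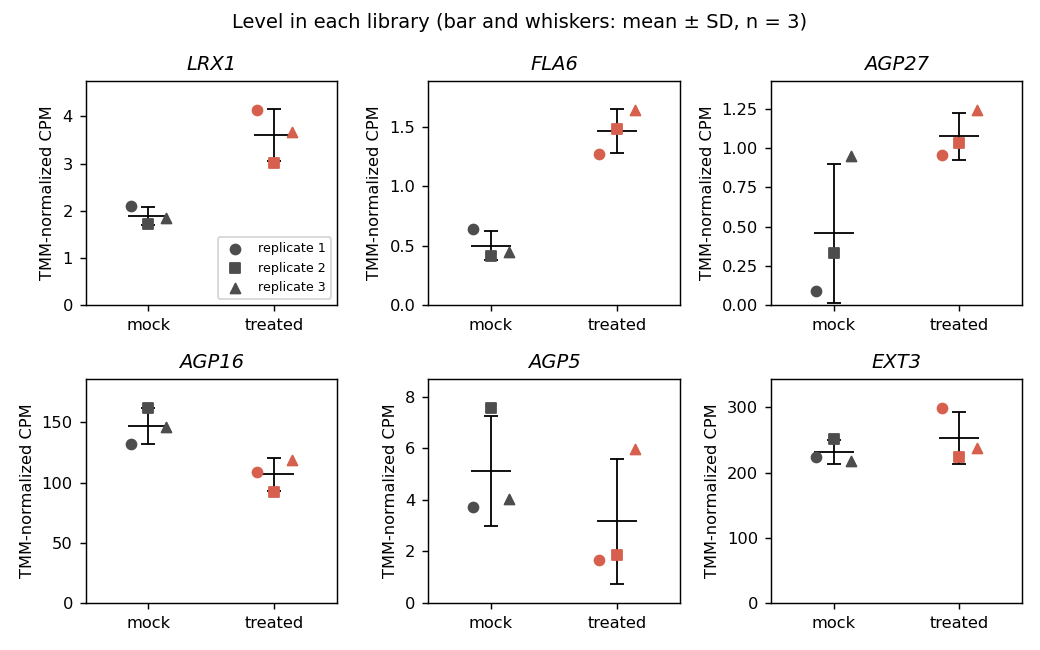
TMM-normalized CPM (vertical axes, each from 0) of 6 genes in the 3 mock and 3 treated libraries, with the mean and SD of each group as bar and whiskers. *LRX1* and *FLA6* separate the groups upward and *AGP16* downward, *AGP27* separates them only narrowly because of mock library 3 (0.949), and *AGP5* and *EXT3* overlap.

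The other 5 fasciclin-like genes among the 29 all had a positive log2 fold change and 0 were called. *FLA1* (AT5G55730) had 30.4, 35.3 and 36.4 CPM in mock and 40.9, 37.5 and 40.3 in treated libraries. Its groups did not overlap, but the difference was small, at 0.21 ± 0.0823 on the log2 scale (adjusted p = 0.14). *FLA9* gave 0.23, *SOS5* 0.21, *FLA2* 0.15 and *FLA7* 0.15, each with overlapping groups. *SOS5* is known for its role in the root wall under salt. With the 11 related genes, 17 fasciclin-like genes were measured, with a median log2 fold change of 0.15. Of these, 1 was higher and 0 lower, against 1.73% and 1.54% of all genes.

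Both typical extensins among the 29 were abundant and showed no call. *EXT3* (AT1G21310, minus strand, chr1:7453245-7455009), which in the embryo is needed to place the cell plate, had 224, 252 and 218 CPM in mock and 299, 224 and 238 in treated libraries. Treated library 1 was the highest of all and the other treated libraries fell among the mock values, with a log2 fold change of 0.13 ± 0.106 (adjusted p = 0.508). *EXT4* (AT1G76930) had 93.2, 118 and 99.8 in mock and 148, 92.5 and 122 in treated libraries. Treated library 2 was below every mock library there, and the log2 fold change was 0.22 ± 0.143 (adjusted p = 0.392). A gene on the other strand (AT1G21313) covers 29.6% of *EXT3*, and the sources used here do not give the strand setting of the counting. Reads of both genes may therefore be joined in this value.

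Of the 13 related genes named as extensins in the Gene Type column, 7 rose and 0 fell, against 1.73% and 1.54% of all genes. *EXT6* (AT2G24980, plus strand, chr2:10622396-10624309) had 1.19, 2.14 and 2.00 CPM in mock and 7.94, 4.30 and 7.10 in treated libraries. The groups stood well apart, with a log2 fold change of 1.84 ± 0.264 (SE, adjusted p = 0.000988), and the call held in all 20 alternative analyses (1.67 to 2.04). *EXT10* (AT5G06640) had 2.46, 3.13 and 1.90 in mock and 7.71, 4.62 and 6.50 in treated libraries, a log2 fold change of 1.40 ± 0.231 (adjusted p = 0.00262). AT3G54580 had 10.9, 15.4 and 16.0 in mock and 32.1, 24.2 and 27.2 in treated libraries, a log2 fold change of 0.97 ± 0.139 (adjusted p = 0.00103). All treated libraries were above all mock libraries in these 3 genes, as in 14.4% of all genes. Treated library 2 was the lowest of the treated libraries in each.

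The other 4 that rose were *EXT12* (1.22, adjusted p = 0.0168), AT4G08410 (1.27, adjusted p = 0.0186), AT5G06630 (1.19, adjusted p = 0.0181) and AT1G26250 (0.61, adjusted p = 0.0173). *EXT13* (0.76, adjusted p = 0.0523) and AT4G08400 (1.08, adjusted p = 0.133) missed the limit. AT4G08410 (6 to 23 reads per mock library) and AT4G08400 (3 to 12) passed the filter on low counts only with the help of the treated libraries. Over all 15 extensins, 7 were called and the median log2 fold change was 0.76. Of the 7 calls, 3 were kept without treated library 1 (*EXT6*, AT3G54580 and *EXT10*), and 4 without mock library 3 (those genes and AT5G06630). The repeats make some of these genes alike in sequence. AT4G08410 shared 40.3% and AT4G08400 51.4% of their 50-base stretches with other genes, in each case mostly the other of the pair, while *EXT6* shared 5.12%, AT5G06630 4.55% and AT3G54580 3.46%. The values of the pair AT4G08400 and AT4G08410 are therefore uncertain. A gene on the opposite strand covers 98.9% of AT1G26250 and 29.7% of *EXT10*, so the values of both may hold reads of another gene.

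**Figure D3:**
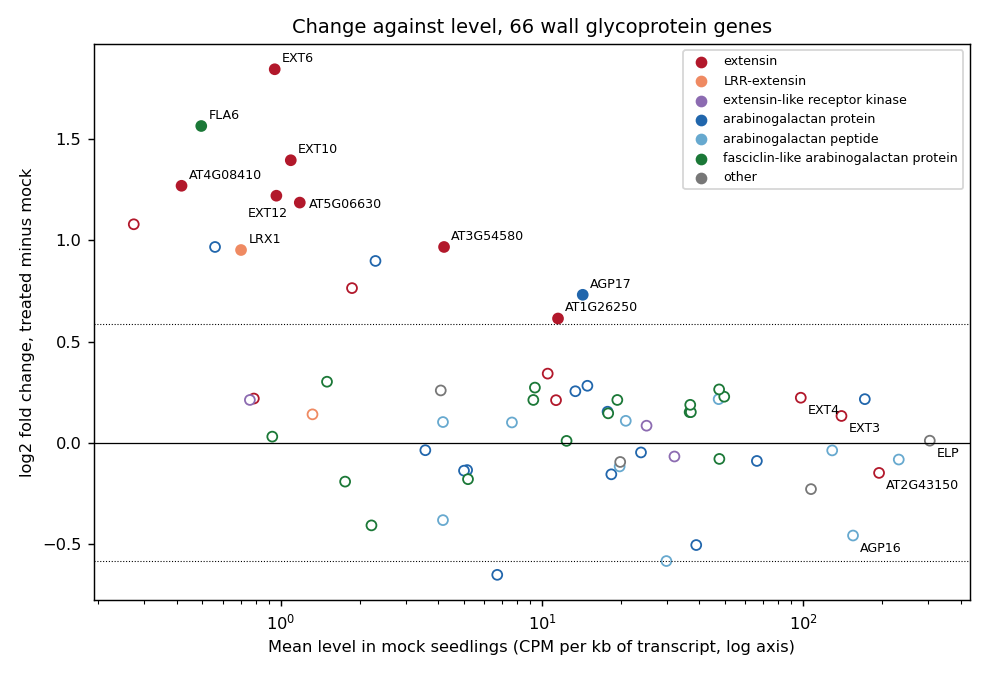
Log2 fold change (treated minus mock, vertical axis) against the mean level in mock seedlings (CPM per kb of transcript, log axis) for the 29 genes and the 37 related genes, coloured by class, with filled points for calls and dotted lines at a fold of 1.5. The 7 called extensins lie between 0.416 and 11.5 CPM per kb in mock seedlings, and *EXT4*, *EXT3* and AT2G43150, at 97.8 to 195, lie near 0, while 5 uncalled extensins lie at 0.273 to 11.3.

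Per kb of transcript, the mean level in mock seedlings of the 7 extensins that rose ran from 0.416 CPM per kb for AT4G08410 to 11.5 for AT1G26250. The abundant extensins *EXT4* (97.8), *EXT3* (140) and AT2G43150 (195; log2 fold change -0.15) were not called. Scarce extensins were not all called either, since AT4G08400 (0.273), AT1G26240 (0.787), *EXT13* (1.87), AT3G28550 (10.5) and AT1G23720 (11.3) lay below or within the levels of the 7. The log2 fold change of AT1G26240 was 0.22 (adjusted p = 0.798). Among the 29 genes the order of mock levels began with *FLA6* (0.495 CPM per kb), *AGP27* (0.559), *LRX1* (0.703) and *PERK4* (0.760), and ended with *EXT3* (140), *AGP16* (155), *AGP15* (232) and *ELP* (305). Both called genes thus lay among the 3 with the lowest levels, where few reads are counted.

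The libraries within a group also differed in a common way. Treated library 2 was the lowest of the treated libraries in 14 of the 15 extensins and in 16 of the 29 genes, against 37.3% of all genes. Mock library 1 was the lowest of the mock libraries in 13 of the 15 extensins and 21 of the 29 genes, against 38.4% of all genes. Mock library 1 also had the fewest counts (10804936), and the part of depth or of any other property of these libraries in the levels was not tested.

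**Figure D4:**
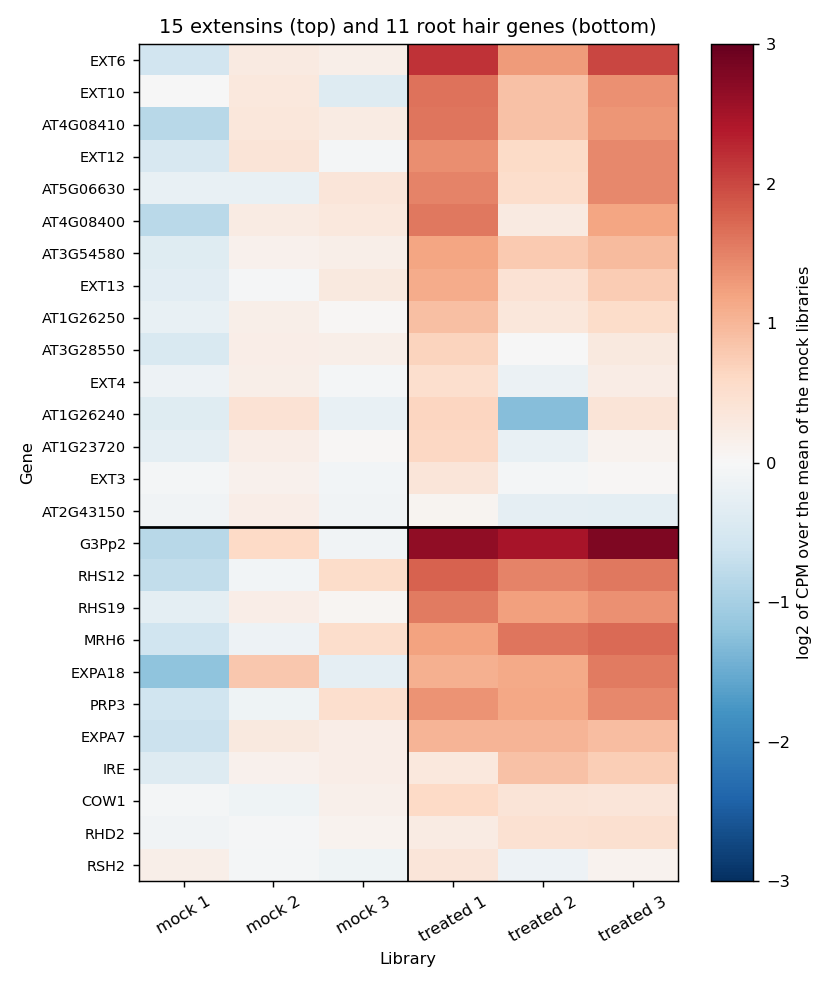
Each cell gives the log2 of a gene's CPM over its mean in the mock libraries (colour scale from -3 to 3) for the 6 libraries (columns), with the 15 extensins above the line and 11 root hair genes below it, each block ordered by fold change. The upper extensins and most root hair genes are red in all 3 treated libraries, with paler extensins in treated library 2, and the lower extensins show paler colours except AT1G26240 in treated library 2 (0.578 CPM).

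Genes of root hairs rose in the same libraries. In a list of 12 root hair genes that includes *LRX1*, 8 rose and 0 fell, against 1.73% and 1.54% of all genes. The list was written with earlier results of these data known, so these counts are not an independent test. Without *LRX1*, 7 of 11 rose, the median log2 fold change was 1.24, and the summed CPM was 21.9 to 28.1 in mock and 43.7 to 47.3 in treated libraries. The 7 were *G3Pp2*, a glycerol-3-phosphate transporter (2.63), *RHS12*, *RHS19*, *MRH6*, the expansins *EXPA18* and *EXPA7*, and *PRP3*. Of these calls, 4 were kept without mock library 1 and 4 without treated library 3, and 2 with glmTreat against a fold of 1.5. Where every library had to reach a CPM of 1, 2 calls were kept (*RHS19* and *PRP3*). The others were not tested there, since each had a mock library below that level. *IRE* (0.61), *COW1* (0.43), *RHD2* (0.39) and *RSH2* (0.16) were not called in the main test. *EXPA7* (0.94, adjusted p = 0.0304) and *EXPA18* (1.28, adjusted p = 0.0421) were the calls most often lost. None of the 12 was at 0 in any library, with a lowest count of 2. Mock libraries held few reads of *G3Pp2* (2 to 6), *MRH6* (4 to 16), *RHS12* (4 to 18) and *EXPA18* (4 to 18). These genes passed the filter on low counts only with the help of the treated libraries. The 9 genes of other root cells in the table, including the non-hair epidermal regulators *GL2* and *MYB66*, had a summed CPM of 169 to 177 in mock and 149 to 160 in treated libraries, with 0 called. *PHO1*, a phosphate exporter of the stele, made up most of that sum and was at -0.36 (adjusted p = 0.0136), under the fold limit. Without it the sum of the other 8 was 72.7 to 76.1 in mock and 75.3 to 81.7 in treated libraries, with *SCR* at 0.31 (adjusted p = 0.0364), also under the fold limit. Of 7 regulators of root hair growth, 1 (*RHD6*) was in the table and it was not called. The part of root hair number or of the share of root in each sample in the results for *LRX1* and the extensins was not tested.

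The 250 bases upstream of *LRX1* are shown because they hold the only match among the 29 genes to the root hair element, a motif known from promoters of root hair genes. They lie on the plus strand (chr1:4069742-4069991, TAIR10.1), and capitals mark the match, which is read on the minus strand and begins 93 bases before the transcription start.
LRX1 promoter: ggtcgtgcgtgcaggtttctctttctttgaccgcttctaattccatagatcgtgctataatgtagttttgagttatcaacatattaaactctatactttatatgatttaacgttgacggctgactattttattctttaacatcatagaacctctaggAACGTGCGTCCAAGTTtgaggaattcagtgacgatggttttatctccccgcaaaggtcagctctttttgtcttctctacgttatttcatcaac
The element occurred in 134 of 19548 promoters of this length (0.685%), in 1 of the 29 genes and in 0 of the 37 related genes. The G-box, CACGTG, occurred in 7.26% of promoters and in 1 of the 29 (*AGP2*). The core of the W-box, TTGAC, occurred in 45.1% of promoters, in 11 of the 29 and in 13 of the 37. Both strands were searched, and a match is a description of letters and not a site of binding.

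The arabinogalactan peptides and proteins gave no call among the 29. *AGP16* (AT2G46330, minus strand, chr2:19018264-19019364), a short lipid-anchored peptide backbone, had 132, 162 and 146 CPM in mock and 109, 92.3 and 119 in treated libraries. It was the only one of the 29 genes with all treated libraries below all mock libraries, as were 13.7% of all genes. Its log2 fold change of -0.46 ± 0.101 passed the adjusted p (0.0143) but not the fold limit, and 4.52% of all genes were lower by adjusted p alone. A gene on the other strand, AT2G46320, covers 20.7% of it. *AGP15*, the most abundant peptide at 232 CPM per kb in mock seedlings, had a log2 fold change of -0.08 ± 0.114, with 204, 261 and 255 CPM in mock and 221, 198 and 260 in treated libraries. Those groups overlapped throughout. The other 5 peptides (*AGP12*, *AGP14*, *AGP21*, *AGP24* and *AGP41*) lay between -0.04 and 0.22. A gene on the other strand, AT1G55335, covers 85.25% of *AGP21*, whose value may hold reads of both. The related *AGP20* was the lowest of the 10 peptides, at -0.58 ± 0.17 (adjusted p = 0.0526), and it was called lower in 4 of the 20 alternatives.

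The 6 classical arabinogalactan proteins among the 29 held the genes with the least steady levels. *AGP5* (AT1G35230) had 3.74, 7.57 and 4.05 CPM in mock and 1.68, 1.86 and 5.96 in treated libraries. Treated library 3 lay among the mock values, and the log2 fold change was -0.65 ± 0.424 (adjusted p = 0.401). Without that library it was -1.52 with an adjusted p of 0.0138, which would be a call. *AGP1* (AT5G64310) had 28.3, 44.4 and 37.7 in mock and 29, 16.2 and 32.1 in treated libraries, with overlapping groups and a log2 fold change of -0.50 ± 0.208 (adjusted p = 0.167). *AGP27* (AT3G06360) had 0.0911, 0.329 and 0.949 in mock and 0.953, 1.03 and 1.24 in treated libraries. The counts behind it were 1, 4 and 19 in mock libraries and 21, 16 and 25 in treated libraries, and mock library 3 nearly reached the treated level. Its log2 fold change was 0.97 ± 0.464 (adjusted p = 0.237), and without mock library 3 it was 2.27 (adjusted p = 0.0369). *AGP2* (0.28), *AGP10* (-0.05) and *AGP4* (-0.15), of which *AGP4* is known from the pistil, were not called. Genes on the other strand cover 60.06% of *AGP4* and 40.6% of *AGP10*, so the values of both may hold reads of another gene.

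Among the 9 related arabinogalactan proteins, *AGP17* (AT2G23130, plus strand, chr2:9844134-9845385) rose. It is known for its part in the transformation of roots by *Agrobacterium*. Its CPM was 16.2, 15.9 and 12.3 in mock and 21.7, 25.4 and 25.7 in treated libraries, without overlap, and its log2 fold change was 0.73 ± 0.118 (SE, adjusted p = 0.00217). *AGP3* missed the limit at 0.90 ± 0.262 (adjusted p = 0.0529). Over all 42 arabinogalactan proteins, peptides and fasciclin-like genes of both sets, the median log2 fold change was 0.10. Of the 42, 2 were higher (4.76%) and 0 lower, against 1.73% and 1.54% of all genes.

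The remaining genes of the 29 were a mixed group with no call. The receptor kinases *PERK4*, which acts in abscisic acid signalling of the root, and *PERK1* had log2 fold changes of 0.21 and -0.07. *ELP*, an extensin-like protein and the most abundant of the 29 per kb, gave 0.01 ± 0.114, with 352, 426 and 314 CPM in mock and 338, 347 and 416 in treated libraries. *AGP31*, known from vascular tissue, gave -0.23 ± 0.111, *AGP30* 0.26 ± 0.183, and *P4H2*, an enzyme that hydroxylates the prolines of these proteins, -0.09 ± 0.0812. None of these values passed the test.

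The genes that build and cross-link these glycoproteins were followed in further lists. Of the prolyl 4-hydroxylases, 9 of 12 were in the table and 0 were called, with log2 fold changes from -0.21 to 0.13. Of the 9 genes of extensin glycosylation, 0 were called. AT5G25265 passed the adjusted p (0.0108) with a log2 fold change of -0.34, which was under the fold limit. Of 17 genes of arabinogalactan glycosylation in the table, 0 were called. AT1G27120, annotated as a galactosyltransferase, passed the adjusted p (0.0034) at 0.49 ± 0.0838, also under the fold limit, with 14.6, 15.5 and 15.2 CPM in mock and 21.4, 21.7 and 20.4 in treated libraries. Over all genes, 3.27% were called in either direction. Lists of 9, 9 and 17 genes are too small for 0 calls to set these enzymes apart from that share.

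Of 6 peroxidases assigned to the cross-linking of extensins, 2 rose, against 1.73% of all genes. *RHS19* (AT5G67400), which is also in the root hair list, had 2.73, 3.79 and 3.45 CPM in mock and 9.71, 7.83 and 8.64 in treated libraries, a log2 fold change of 1.39 ± 0.153 (adjusted p = 0.000175). AT4G26010 had 4.65, 7.08 and 7.19 in mock and 13.8, 11.1 and 13.3 in treated libraries, a log2 fold change of 0.99 ± 0.154 (adjusted p = 0.00169). All treated libraries were above all mock libraries in both genes, as in 14.4% of all genes. Of 4 proline-rich wall proteins, 1 rose, against 1.73% of all genes. This was *PRP3*, again in the root hair list, at 1.24 ± 0.216 (adjusted p = 0.00363). *PRP2* was at 0.30 ± 0.0744 (adjusted p = 0.0253), under the fold limit. The peroxidase and proline-rich lists were also written with earlier results known, so their counts are not an independent test.

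The list of leucine-rich repeat extensins held 1 gene that rose and 1 that fell among the 9 of 11 in the table. Over all genes, 1.73% rose and 1.54% fell. The gene that rose was *LRX1*. The gene that fell was AT2G15880 (minus strand, chr2:6917514-6920319), which the table names only as a leucine-rich repeat family protein and which the words of the descriptions therefore missed. Its coding sequence, shown above in part, held 25 repeats of serine and 4 or more prolines. It had 18.2, 20.4 and 18.2 CPM in mock and 8.98, 7.90 and 9.18 in treated libraries. Every treated library was below every mock library, as in 13.7% of all genes. The log2 fold change was -1.12 ± 0.102 (adjusted p = 5.56e-05), and the call held in all 20 alternatives (-1.16 to -1.06). The receptor and peptide genes that work with these proteins (*FER* and 5 RALF peptides) gave 0 calls of 6, and the 8 receptor kinases of the PERK family in the table gave 0.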

How the data were processed

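Total RNA of 3 mock and 3 treated samples was sequenced. The labels name both a TruSeq and a NEBNext Ultra Directional kit. The authors used Trimmomatic 0.36 for trimming, Rockhopper for quality checks, HISAT2 2.1.0 for alignment to TAIR10 and HTSeq-count for the deposited counts per gene. The annotation version, strand setting and treatment of reads with several matches are not given in the sources used here. The deposited CPM values equal the counts over the library total to within 3.6e-11. The authors' fold changes and p-values, also in the table, hold their own comparison and were not used.

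Counts were tested in R 4.3.3 with edgeR 4.0.16 (filterByExpr, TMM, quasi-likelihood test, no covariate, Benjamini-Hochberg adjustment over 19615 genes), with the limits of adjusted p 0.05 and fold 1.5. Per-gene values are TMM-normalized CPM. Figures and tables used Python 3.11.15, pandas 2.3.3, numpy 2.4.6 and matplotlib 3.10.9. Gene models, lengths and sequences came from TAIR10.1 (RefSeq), matched by locus. Genes outside the deposited table were not analysed here. Data were simulated for this comparison (19612 genes) with the same spread for all genes (biological coefficient of variation 0.0792). By adjusted p alone, the test recovered 41 of 50 genes simulated at 1.5-fold and 45 of 49 at 2-fold. It recovered 50 of 50 at 3-fold and 50 of 50 at 4-fold. Adjusted p together with the fold limit gave 1 false call. These counts do not hold for genes with a wider spread, such as *AGP27* and *AGP5*. The genes and the 13 lists, written from general knowledge, were chosen with earlier results of these data known. The rule for naming took every gene past both limits, and in each class or list up to 4 others with the smallest adjusted p, with up to 4 of the highest level per class. Alternatives were normalizations by upper quartile, library size or the size factors of DESeq2, filters, tests (DESeq2 1.42.0, limma-voom with limma 3.58.1, edgeR's exact and likelihood ratio tests), thresholds, a replicate block, equal depth, and each library left out.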

Additional observations from a re-analysis of the deposited data

How the results depend on the processing

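The count of 2 genes called higher among the 29 was 1 when every one of the 6 libraries had to reach a CPM of 1, where *FLA6* was not tested, 1 with a fold limit of 2, 0 with glmTreat against a fold of 1.5, and 3 with edgeR's exact test, which added *AGP27* (adjusted p = 0.046). Leaving out 1 library gave 1 to 2. Without mock library 3 neither *LRX1* nor *FLA6* was called and *AGP27* was. The count of 0 called lower was 1 by adjusted p alone (*AGP16*) and 0 to 1 with a library left out (*AGP5* without treated library 3). Other settings kept these counts. Over all genes, adjusted p alone gave 1001 higher and 887 lower, a fold limit of 2 gave 98 and 90, and glmTreat 45 and 60. With a library left out they were 257 to 338 and 248 to 352. Among the 37 related genes, 8 were higher, with 5 at a fold limit of 2, 1 (*EXT6*) with glmTreat, and 4 to 11 with a library left out. The count lower there was 0, and 1 (*AGP20*) with library size alone, limma-voom, or without mock library 1 or treated library 3.

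Genes with small changes turned direction with a library left out. Their log2 fold changes ran from -0.088 to 0.14 (*ELP*), -0.004 to 0.22 (*EXT3*), -0.146 to 0.073 (*AGP21*), -0.012 to 0.283 (*FLA7*), -0.30 to 0.11 (*AGP10*, and 0.047 at equal depth), -0.31 to 0.11 (*AGP4*), -0.20 to 0.006 (*AGP15*), -0.084 to 0.459 (*AGP41*), -0.08 to 0.26 (*AGP24*) and -0.054 to 0.259 (*AGP14*). The cause was not tested. Of the 7 root hair calls, 6 were kept with DESeq2, which lost *EXPA7* (adjusted p = 0.059), and 5 at equal depth. Same-numbered libraries deviated with correlations of -0.185, -0.274 and 0.149, and differently numbered ones with -0.325 to 0.422. With 3 libraries per group, these values cannot decide whether the numbers pair the libraries, and the main test used no pairing. A replicate block gave 2 higher and 0 lower of the 29, 6 higher of the 37, kept 5 of the 7 root hair calls (not *EXPA7* or *EXPA18*), and 282 higher and 265 lower over all genes. With 3 libraries per group, genes of few reads limit what could be detected, and p-values measure only the spread between these samples.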
